A study of Rattus norvegicus with 9 samples.

Results

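Metallothioneins bind zinc inside the cell, and 2 transporter families move it across membranes. These genes were examined in the rat prostate with and without androgen-induced benign prostatic hyperplasia (BPH) and oral ghrelin. The 9 genes were the metallothioneins Mt3 and Mt2A, the zinc exporters Slc30a1, Slc30a2, Slc30a4 and Slc30a10, and the zinc importers Slc39a1, Slc39a8 and Slc39a14, out of 15163 gene symbols matched on the array. They were selected from these families with results of the same arrays already known, by differences between the group means. Their values are therefore given as a description and without p values, while tests are given for the other genes of the complete families (29 genes listed, 25 with a matched probe). Where the 9 genes are called in counts over the families, the calls rest on the arrays used to select them and are no test of them. All 9 genes had a probe, 12 probes in all, and 8 of the 9 were bright enough to be compared.

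RNA had come from the prostates of male Sprague Dawley rats bought at an age of 6 weeks, and 3 of 8 rats per group were put on 1 array each. Sham rats underwent a sham castration and were injected with corn oil. BPH rats were castrated and received dihydrotestosterone (3 mg/kg daily, subcutaneously) for 4 weeks. BPH+ghrelin rats were castrated and injected likewise, and received rat ghrelin, a hormone of the stomach, by gavage in the last 2 weeks (20 nmol/kg daily, as the methods give it, although another passage of the study names a different dose and route). Sham and BPH rats received distilled water by gavage instead. BPH and sham thus differ by castration and androgen together, the lobes sampled are not stated, and in bulk tissue fewer cells of a type and less RNA per cell cannot be told apart.

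Signals are given on a log2 scale after quantile normalization, so that a difference of 1 is 2-fold, and levels are compared between groups for the same probe only. Several properties of the arrays touch every value. First, 1 array of each group was intermediate between its 2 companions at most of the 17858 probes with a signal well above background throughout, namely sham replicate 3 at 76.9%, BPH replicate 2 at 74.7% and BPH+ghrelin replicate 2 at 72.1%. Among the 22 zinc probes that were well above background on all arrays, BPH replicate 2 lay between the other BPH arrays at 22 of 22, sham replicate 3 at 19 and BPH+ghrelin replicate 2 at 18. Of 3 independent arrays, each would be intermediate at 33.3% of probes on average. The p values and standard errors assume independent arrays and, for each gene, the same spread in all 3 groups. Whether these 3 arrays are independent of their companions was not tested, and if they are not, n = 3 overstates the number of samples. Results without them are given for Mt1 and for the family counts of BPH and of BPH+ghrelin against sham. The other counts and calls, including those of the other gene lists, are given without such a fit. Second, the 3 BPH arrays shared a scan time with BPH+ghrelin replicate 1, sham replicates 1 and 2 shared one with BPH+ghrelin replicates 2 and 3, and the last sham array was scanned alone. No BPH array was scanned together with a sham array, so a scan effect can be separated from that comparison only through the BPH+ghrelin arrays. Finally, sham replicate 2 was the dimmest array, with a median raw signal of 40.9 against 73.3 to 133 on the other arrays. Of the defining genes of rat prostate secretion, Pbsn (probasin) was well above background on all 9 arrays, at 13.11 to 16.41.

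Metallothioneins are small, cysteine-rich proteins that hold zinc, copper and cadmium. Their genes are switched on by zinc through the metal-sensing factor Mtf1, which binds metal response elements, and also by glucocorticoids. The epithelium of the prostate is known for its high zinc content. In the RefSeq annotation of the rat genome (build GRCr8), Mt1, Mt2A, Mt3 and Mt4 lie next to each other on the minus strand of chromosome 19, with 38.9 kb between the start sites of Mt1 and Mt4. The 250 bases before the start sites of the 3 bright metallothioneins and of Slc30a2 are shown because these 4 genes moved together on the arrays. They are written from 5′ to 3′, and capitals mark the core of the metal response element (TGCACNC or TGCGCNC on either strand, with overlapping matches counted separately).
Mt1, chr19:10832976-10833225, minus strand: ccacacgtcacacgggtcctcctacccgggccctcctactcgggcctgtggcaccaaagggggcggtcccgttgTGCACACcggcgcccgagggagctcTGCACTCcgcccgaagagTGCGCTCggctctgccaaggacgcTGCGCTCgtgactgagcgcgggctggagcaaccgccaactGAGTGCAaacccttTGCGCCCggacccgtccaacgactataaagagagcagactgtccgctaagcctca
Mt2A, chr19:10838709-10838958, minus strand: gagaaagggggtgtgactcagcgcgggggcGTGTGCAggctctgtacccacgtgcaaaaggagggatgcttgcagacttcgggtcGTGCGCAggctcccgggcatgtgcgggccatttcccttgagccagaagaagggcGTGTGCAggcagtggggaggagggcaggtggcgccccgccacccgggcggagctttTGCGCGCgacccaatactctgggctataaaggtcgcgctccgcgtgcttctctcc
Mt3, chr19:10856081-10856330, minus strand: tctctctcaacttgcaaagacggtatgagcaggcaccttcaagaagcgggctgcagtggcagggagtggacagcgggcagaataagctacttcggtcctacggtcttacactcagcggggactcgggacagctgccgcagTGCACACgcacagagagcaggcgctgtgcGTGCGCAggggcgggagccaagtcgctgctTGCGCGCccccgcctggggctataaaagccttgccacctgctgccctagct
Slc30a2, chr5:151843201-151843450, plus strand: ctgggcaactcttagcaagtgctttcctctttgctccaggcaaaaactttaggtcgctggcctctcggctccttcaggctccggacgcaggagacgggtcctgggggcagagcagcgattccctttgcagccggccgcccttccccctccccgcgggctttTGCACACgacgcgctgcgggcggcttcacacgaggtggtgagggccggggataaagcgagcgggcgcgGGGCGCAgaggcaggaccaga

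The core was found 6 times before Mt1, 4 times before Mt2A, 3 times before Mt3, once before Mt4 and 2 times before Slc30a2. Of all 33469 promoter windows of this length, 20.6% held at least 1 match, 4.9% at least 2, 1.17% at least 3 and 0.266% at least 4. The matches before Mt1 began at positions -176, -151, -133, -109, -69 and -55 from the start site, and those before Mt3 at -110, -81 and -51. The letters TATAAA stood at -32 before Mt1, at -31 before Mt2A and Mt3 and at -37 before Mt4, and they occurred on the gene's strand in 8.06% of all windows. A second annotated start of Slc30a2 had 0 matches. Slc30a1 and Slc30a4 had 2 matches each, Slc39a1 had 1 and Slc39a8 had 0. Slc39a7, which transports zinc out of the endoplasmic reticulum, had 4 matches, as many as Mt2A, and its signal did not differ in the same way (0.32 for BPH and 0.56 for BPH+ghrelin against sham, adjusted p 0.326 and 0.125 in limma). Slc30a5, Slc39a11 and Slc39a13 had 2 each. Over the complete families, 23 genes had 25 windows in the table, of which 13 held a match. Such a match is a string of letters and was not tested as a binding site.

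**Figure D1:**
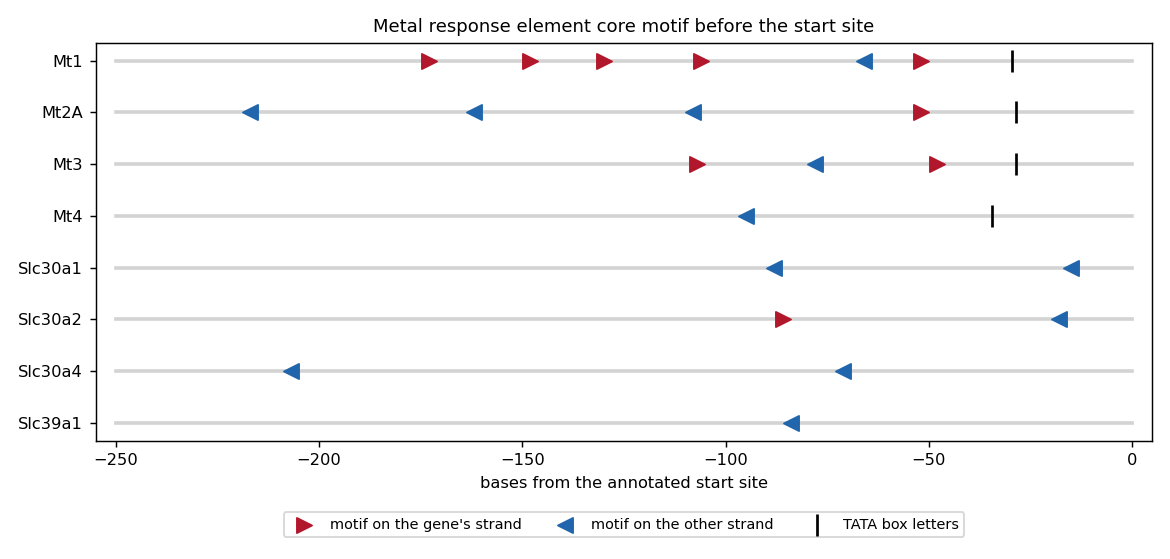
Positions of the metal response element core (triangles, pointing right on the strand of the gene and left on the other strand) and of the TATA box letters (black bars) in the 250 bases before the start site, for the metallothioneins and the transporters of the list of 9 with at least 1 match (Slc30a2 at its first start site). The x axis gives bases from the annotated start site. Mt1 holds 6 matches, Mt2A 4, Mt3 3 and the transporters 1 or 2.

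Mt3, a metallothionein best known from the brain, differed most. Its signal was 12.12, 13.14 and 12.63 in the sham arrays, 8.26, 7.29 and 3.81 in the BPH arrays, and 3.71, 4.28 and 4.04 in the BPH+ghrelin arrays. The sham arrays stood far above all others, and BPH replicate 3 stood among the BPH+ghrelin arrays. The mean in BPH was 72.4-fold lower than in sham (log2 difference -6.18, standard error 0.98), and the log2 difference was -4.85 without BPH replicate 3, -7.08 without BPH replicate 1 and -4.96 with another background correction (normexp). The mean in BPH+ghrelin was 393-fold lower than in sham (-8.62, standard error 0.98). Mt3 was well above background on all 9 arrays, but its low values are near the dim end, and with normexp the latter difference was -6.09.

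Mt2A, one of the main metallothioneins of most tissues, showed the same order. Its brighter probe read 15.89, 15.16 and 15.54 in sham, 12.92, 12.04 and 8.89 in BPH, and 9.24, 9.13 and 9.05 in BPH+ghrelin. Here too, the sham arrays did not overlap with the others, while BPH replicate 3 was below every BPH+ghrelin array. The log2 difference of BPH to sham was -4.24 (standard error 0.87), which is 18.9-fold lower in BPH. It was -3.05 without BPH replicate 3 and -5.06 without BPH replicate 1. The difference of BPH+ghrelin to sham was -6.39 (standard error 0.87). The dimmer probe of the gene gave smaller differences of the same sign, namely -3.62 for BPH and -4.47 for BPH+ghrelin against sham.

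Mt1, the gene next to Mt2A and likewise made in most tissues, was not on the list of 9. It read 15.85, 16.01 and 15.99 in sham, 13.43, 12.61 and 10.32 in BPH, and 10.58, 10.51 and 10.50 in BPH+ghrelin. It fell 14.2-fold from sham to BPH (log2 difference -3.83, standard error 0.66, adjusted p 0.0228 in limma) and was 42.8-fold lower in BPH+ghrelin than in sham (-5.42, standard error 0.66, adjusted p 0.00458). Between BPH+ghrelin and BPH the difference was -1.59 (adjusted p 0.219), and the arrays overlapped. Without BPH replicate 3, the difference of BPH to sham was -2.93. The call for BPH against sham was lost with a fit on the 6 arrays compared only (adjusted p 0.0874), with replicate number as a block (0.0514) and with the scan set as a fixed block (0.654). It was also lost without BPH replicate 2 (adjusted p 0.0879) or without sham replicate 3 (0.0913), and with the 3 arrays that lie between the others left out it was 0.69 at a difference of -4.06. For BPH+ghrelin against sham, the adjusted p was 0.282 without these 3 arrays, 0.0943 with the scan set as a fixed block, and under 0.05 in each of the 6 fits without a single array. Mt4, known from stratified epithelia, was dim. It was well above background on 2 sham arrays, 0 BPH arrays and 1 BPH+ghrelin array. The sham mean was 2.25-fold above the background limit of the BPH arrays. That mean includes sham replicate 2, which read 3.54 where its own limit was 3.75, so 2.25-fold is no strict lower bound.

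**Figure D2:**
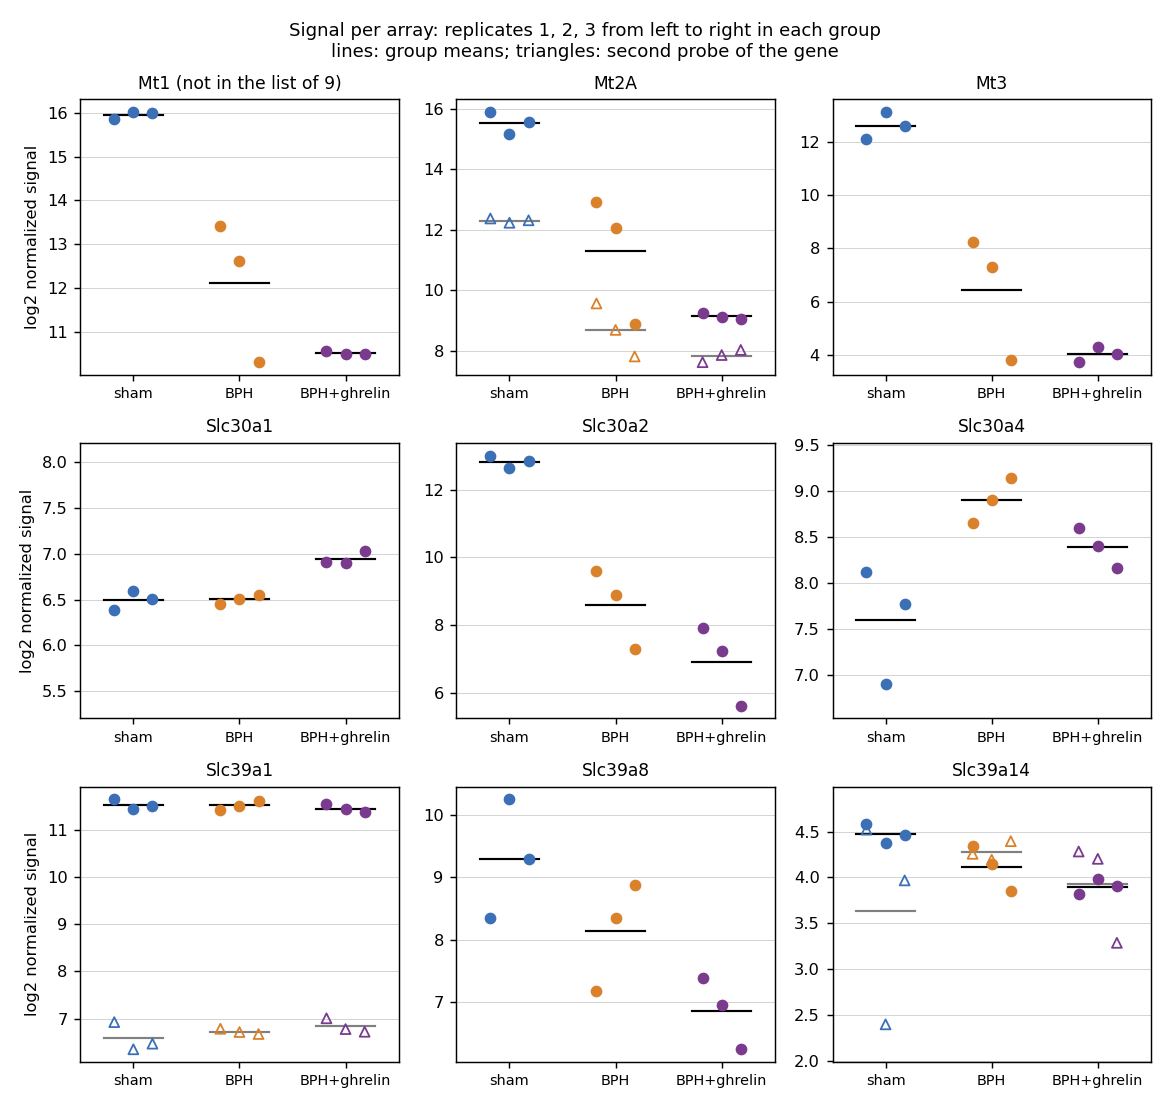
Normalized log2 signal (y axis) of each array for Mt1 and 8 of the 9 listed genes in sham, BPH and BPH+ghrelin. Each symbol is 1 array, lines are means of 3 arrays, and triangles show a second probe of the same gene. Mt1, Mt2A, Mt3 and Slc30a2 separate sham from the other groups, with BPH replicate 3 lowest among the BPH arrays, and Slc39a1 lies between 11.37 and 11.65 on all 9 arrays with its brighter probe.

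The Slc30a (ZnT) proteins move zinc out of the cytosol, either out of the cell or into vesicles. Slc30a2, which loads zinc into secretory vesicles, read 13.00, 12.62 and 12.83 in sham, 9.59, 8.89 and 7.31 in BPH, and 7.92, 7.23 and 5.63 in BPH+ghrelin. The sham arrays were again apart, and the BPH and BPH+ghrelin arrays overlapped. Its mean was 18.7-fold lower in BPH than in sham (log2 difference -4.23, standard error 0.68, and -3.58 without BPH replicate 3) and 59.4-fold lower in BPH+ghrelin than in sham (-5.89, standard error 0.68). The latter difference ranged from -6.39 to -5.24 when single arrays were left out. In contrast to Mt1, Mt2A and Mt3, whose BPH+ghrelin arrays lay within 1.06-fold, 1.14-fold and 1.48-fold of each other, Slc30a2 spanned 4.88-fold among them.

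Slc30a4, an exporter of endosomes and secretory vesicles, went the other way. It read 8.12, 6.90 and 7.77 in sham, 8.65, 8.90 and 9.15 in BPH, and 8.60, 8.40 and 8.17 in BPH+ghrelin, with all sham arrays below all BPH arrays. The mean was 2.47-fold higher in BPH than in sham (log2 difference 1.31, standard error 0.30) and 1.73-fold higher in BPH+ghrelin than in sham (0.79, standard error 0.30). The lowest value came from sham replicate 2, the dimmest array, and without it the differences were 0.96 and 0.44.

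Slc30a1, the exporter of the plasma membrane and itself a gene induced by zinc, read 6.39, 6.60 and 6.51 in sham and 6.45, 6.51 and 6.55 in BPH. The BPH+ghrelin arrays, at 6.91, 6.90 and 7.03, were above all others. The means of BPH and sham differed by 0.01 (standard error 0.11), and BPH+ghrelin was 1.36-fold higher than BPH (log2 difference 0.44, standard error 0.11). Slc30a10, known as a manganese exporter, was well above background on 0 of 9 arrays and gives no level here.

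The Slc39a (ZIP) proteins bring zinc into the cytosol. Slc39a1, the importer held to carry most zinc uptake in prostate epithelium, differed by less than the spread between arrays. Its group means were 11.54 ± 0.11 (SD, n = 3) in sham, 11.52 ± 0.09 in BPH and 11.45 ± 0.08 in BPH+ghrelin. The difference of BPH to sham was -0.02 with a standard error of 0.12, and that of BPH+ghrelin to sham was -0.08 (standard error 0.12). A second, dimmer probe ranged from 6.35 to 7.00 and overlapped between the groups as well.

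Slc39a8, which carries zinc and also manganese and cadmium, varied within all groups. It read 8.35, 10.26 and 9.29 in sham, 7.18, 8.35 and 8.88 in BPH, and 7.38, 6.96 and 6.24 in BPH+ghrelin. Only the sham and BPH+ghrelin arrays did not overlap, and the mean was 5.43-fold lower in BPH+ghrelin (log2 difference -2.44, standard error 0.58). Without sham replicate 2 this difference was -1.96. Unlike the metallothioneins, it was lowest in BPH replicate 1 among the BPH arrays. Slc39a14, an importer of zinc and iron, was dim. One probe read 4.47 ± 0.10 (SD, n = 3) in sham, 4.11 ± 0.25 in BPH and 3.90 ± 0.08 in BPH+ghrelin. The other probe was well above background on 2 of the 3 sham arrays, where sham replicate 2 read 2.40 against 4.52 and 3.97, so no difference to sham is given for it.

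Over the complete families, 20 genes could be tested for BPH against sham, and 9 of these were higher and 11 lower in BPH, with a median log2 difference of -0.11, compared to 0.04 over all 19552 genes tested. Lower at an adjusted p under 0.05 were 4 genes, namely Mt1, Mt2A, Mt3 and Slc30a2, and higher were 0. Of these, 3 were on the list of 9, so this count reads on the choice of the list, and among the 12 tested genes outside it only Mt1 passed. Of all genes tested, 4.33% passed, 421 higher and 426 lower. The arrays of BPH and sham did not overlap for 5 genes higher and 7 lower among the 20 (31.3% of all genes tested). Leaving out BPH replicate 2 or sham replicate 3 brought the count of 4 to 0, and leaving out sham replicate 1 brought it to 8. With 2 arrays per group, those between the others left out, it was 0. With the scan set as a fixed block, the differences were -3.89 for Mt1, -4.39 for Mt2A, -5.73 for Mt3 and -5.70 for Slc30a2, with standard errors of 1.42, 1.88, 2.09 and 1.26, and the count was 0. Slc39a5, an importer of zinc, was 2.08-fold lower in BPH without overlap (5.21, 6.14 and 5.64 in sham, 5.01, 4.62 and 4.20 in BPH), at an adjusted p of 0.0783 in limma. Its log2 difference of -1.06 was -0.35 with normexp and -1.47 with the scan set as a fixed block.

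For BPH+ghrelin against BPH, 0 of 20 family genes had an adjusted p under 0.05 in limma, while 9 had an unadjusted p under 0.05 (4172 of all 19749 genes did). Of the latter, 4 were on the list of 9, so this count reads on the choice of the list. Of all genes tested, 1.48% passed the adjusted threshold. The arrays did not overlap for 4 genes higher and 2 lower (39.2% of all genes). Mt1, Mt2A, Mt3 and Slc30a2 were lower by log2 means of -1.59, -2.15, -2.44 and -1.67, and in each of the 4 BPH replicate 3 reached the level of the BPH+ghrelin arrays. Without that array, the count went from 0 to 3 (Mt1 and, from the list of 9, Mt2A and Mt3), with 398 of all genes called in that fit. Such a count, too, reads on the choice of the list. The differences in that fit were -2.49, -3.35, -3.76 and -2.31. Without BPH replicate 1, they were instead -0.93, -1.33, -1.54 and -1.17, and the count was 0. With the normexp background correction, Mt3 differed by -1.12. The dimmer probe of Mt2A, with all arrays, differed by -0.85, compared to -2.15 with the brighter probe. Against the BPH arrays scanned together with it, BPH+ghrelin replicate 1 alone differed by -1.54 for Mt1, -2.05 for Mt2A, -2.74 for Mt3 and -0.68 for Slc30a2. Both comparisons with BPH use the same 3 BPH arrays.

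For BPH+ghrelin against sham, 21 family genes were tested, with a median of -0.06, compared to 0.04 over all genes. Of these, 5 were called lower (Mt1, Mt2A, Mt3, Slc30a2 and Slc39a8) and 2 higher, where 6.30% of all genes passed. Of the 5, only Mt1 was not on the list of 9, so this count too reads on the choice of the list. Slc39a8 stayed in the count in 1 of 6 fits that left out a single array. The arrays did not overlap for 8 genes higher and 8 lower (30.4% of all genes). Both genes that were higher stood outside the list of 9. Slc30a3, an exporter of synaptic vesicles, read 4.78, 4.89 and 4.73 in sham and 5.35, 5.51 and 5.56 in BPH+ghrelin and rose 1.59-fold (adjusted p 0.0291). Slc39a9, an importer of the Golgi and the plasma membrane, read 5.56, 5.55 and 5.38 in sham and 6.48, 6.57 and 6.45 in BPH+ghrelin (log2 difference 1.00, standard error 0.21, adjusted p 0.0347 in limma). Each of the 2 calls held in 2 of 6 fits that left out a single array and in 9 of 18 alternatives, and neither held with the arrays scaled to the 75th percentile (adjusted p 0.0741 and 0.0557). With normexp, the log2 difference was 0.23 for Slc30a3, compared to 0.67 in the main fit, and 0.49 for Slc39a9. The count of 7 was 4 without BPH+ghrelin replicate 2, 4 without BPH+ghrelin replicate 3, 4 without sham replicate 3 and 0 with 2 arrays per group. It was 1 with the scan set as a fixed block (Slc30a2) and 4 with replicate number as a block. Within the set of arrays scanned together, 2 BPH+ghrelin and 2 sham arrays differed by -5.42 for Mt1, -6.44 for Mt2A, -8.47 for Mt3, -6.38 for Slc30a2 and -2.71 for Slc39a8.

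**Figure D3:**
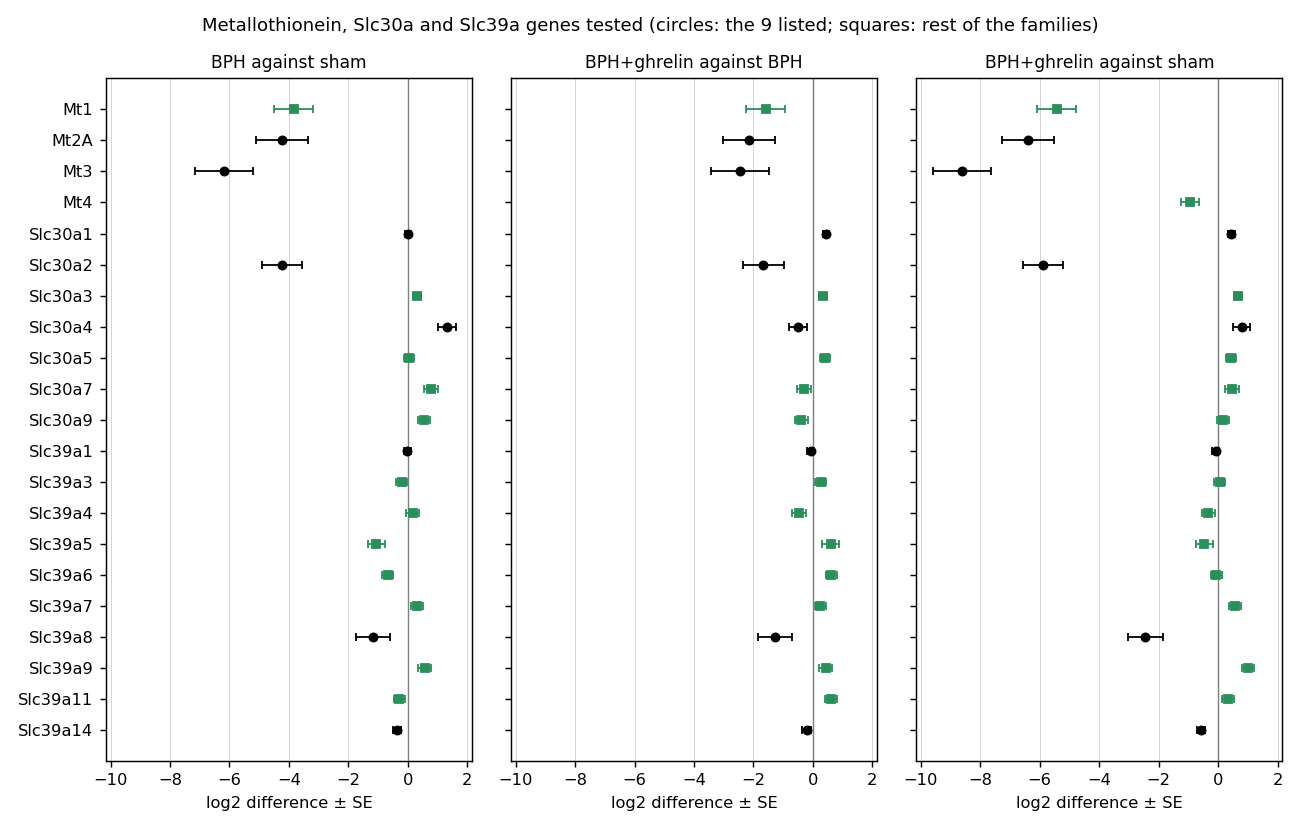
Log2 differences (x axis) with standard errors from limma for each metallothionein, Slc30a and Slc39a gene tested, in the 3 comparisons. Circles are genes of the list of 9 and squares the other family genes, and a gene without a symbol was too dim for that comparison. Mt1, Mt2A, Mt3 and Slc30a2 lie between -6.18 and -3.83 for BPH against sham, while the other genes tested lie between -1.16 and 1.31.

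The pattern over the 9 arrays was most alike between Mt1 and Mt3 (Pearson's r 0.997), Mt1 and Mt2A (0.995) and Mt2A and Mt3 (0.988). Slc30a2 correlated with these 3 at 0.966 to 0.972. Among 11790 other genes with a symbol, those most like Mt3 were Mt1, Teddm1a (0.996), Trim63 (0.993), Slc22a4 (0.990) and Scn1a (0.988). Among those most like Slc30a2 were Mcoln2 (0.998), Mep1b (0.992), Car2 (0.990) and Ccn1 (0.987). Those most like Mt2A were Mt1, Teddm1a, Scn1a, Nit2 and Cd52 (0.991 to 0.995). Slc30a4 was most like Ctbs, Sms, Mdh2, Dnajc10 and Nipa2 (0.992 to 0.996), and Slc39a8 was most like Mmp7 (0.970), Prss22 (0.955), Or1x2d (0.948), Cp (0.944) and Acadm (0.943). With its brighter probe, Slc39a14 also followed the metallothioneins (0.946 to 0.973), although its differences were small. These values rest on the 9 arrays of 3 groups and include the differences between the groups.

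Other genes tied to zinc were read from a list. Of 10 listed genes of zinc sensing or zinc-dependent function, 7 were tested, and 1 was called for BPH against sham, where 4.33% of all genes passed. It was Car2, a zinc-containing carbonic anhydrase, which read 14.85, 14.25 and 14.60 in sham, 11.28, 10.65 and 9.28 in BPH, and 8.70, 8.26 and 7.57 in BPH+ghrelin. Car2 was lower in BPH (log2 difference -4.16, adjusted p 0.00595) and in BPH+ghrelin (-6.39, adjusted p 0.000724) than in sham. S100a8 and S100a9, which form the zinc-binding calprotectin of neutrophils, did not pass the test (adjusted p 0.119 and 0.0945). The sham arrays were far apart for both, at 4.06, 7.64 and 6.17 for S100a8 and 4.00, 7.82 and 6.16 for S100a9, and S100a8 read 4.21, 3.65 and 3.05 in BPH, which overlapped with sham. S100a9 read 3.68, 3.39 and 2.68 in BPH, below all sham arrays. It was well above background on 8 of the 9 arrays only and gets no size here. Mtf1, given here for its role as the zinc sensor, differed by 0.25 (adjusted p 0.357). Metallothioneins also respond to glucocorticoids and to stress, so 2 further lists were read. Of 11 glucocorticoid-responsive genes tested in limma, 0 were called for BPH against sham (4.33% of all genes) and 0 had an unadjusted p under 0.05 (5174 of all 19552 genes did), with a median of -0.20. From counts of this size nothing is read about the list, and 1 was called for BPH+ghrelin against sham (Tsc22d3, 0.64 higher, adjusted p 0.0479), where 6.30% of all genes passed. Of 10 targets of the stress factor Nrf2, 3 were called for BPH against sham (4.33% of all genes). Gstm1 (2.01, adjusted p 0.00453) and Hmox1 (0.53, adjusted p 0.042) rose and Gsta4 fell (-1.69, adjusted p 0.00209).

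Markers of the secretory gland moved on the same arrays. The mean log2 signal of 8 prostate secretory genes was 13.64 to 13.83 in sham, 10.86 to 12.38 in BPH and 10.76 to 11.44 in BPH+ghrelin. Pbsn fell in BPH against sham (-2.65). Msmb, a protein of prostatic fluid, read 16.22, 15.99 and 16.11 in sham, 12.81, 11.98 and 4.79 in BPH, and 8.41, 7.37 and 3.45 in BPH+ghrelin, with BPH replicate 3 low as for the metallothioneins. The mean of 7 seminal vesicle and coagulating gland genes was 8.56 to 9.56 in sham, 7.34, 6.68 and 4.55 in BPH and 4.12 to 5.88 in BPH+ghrelin. Of these 7, 3 were called lower for BPH against sham, where 4.33% of all genes passed, namely Svs4 (-4.26) and Svs3a and Svs3b, which were well above background on 7 and 4 of the 9 arrays only and get no size here, while Svs5 and Svs6 had differences of 0.26 and 1.27 and did not pass. Semg1, a seminal coagulum protein that did not pass either (adjusted p 0.172), read 16.69, 16.07 and 16.69 in sham and 14.53, 13.63 and 7.35 in BPH. The mean of 5 luminal epithelial genes was 12.48 to 12.88 in sham, 12.88 to 13.34 in BPH and 12.79 to 12.99 in BPH+ghrelin. Of these 5, 1 was called for BPH against sham (4.33% of all genes), namely the keratin Krt8 (0.96, adjusted p 0.0091), while Krt18 differed by -0.21 (adjusted p 0.534). The mean of 5 smooth muscle genes was 9.60 to 10.43 in sham, 9.79, 10.30 and 10.63 in BPH and 9.46 to 9.78 in BPH+ghrelin. That of 6 fibroblast genes was 10.11 to 10.91 in sham, 10.69, 10.94 and 11.07 in BPH and 10.22 to 10.75 in BPH+ghrelin. BPH replicate 3 was thus the highest BPH array for both lists. The fat genes were lowest on sham replicate 1 and BPH+ghrelin replicate 1 (means 3.42 and 2.70, against 6.65 to 8.47 on the other arrays), which did not follow the metallothioneins. The part of gland or cell content in the zinc genes' differences was not tested.

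**Figure D4:**
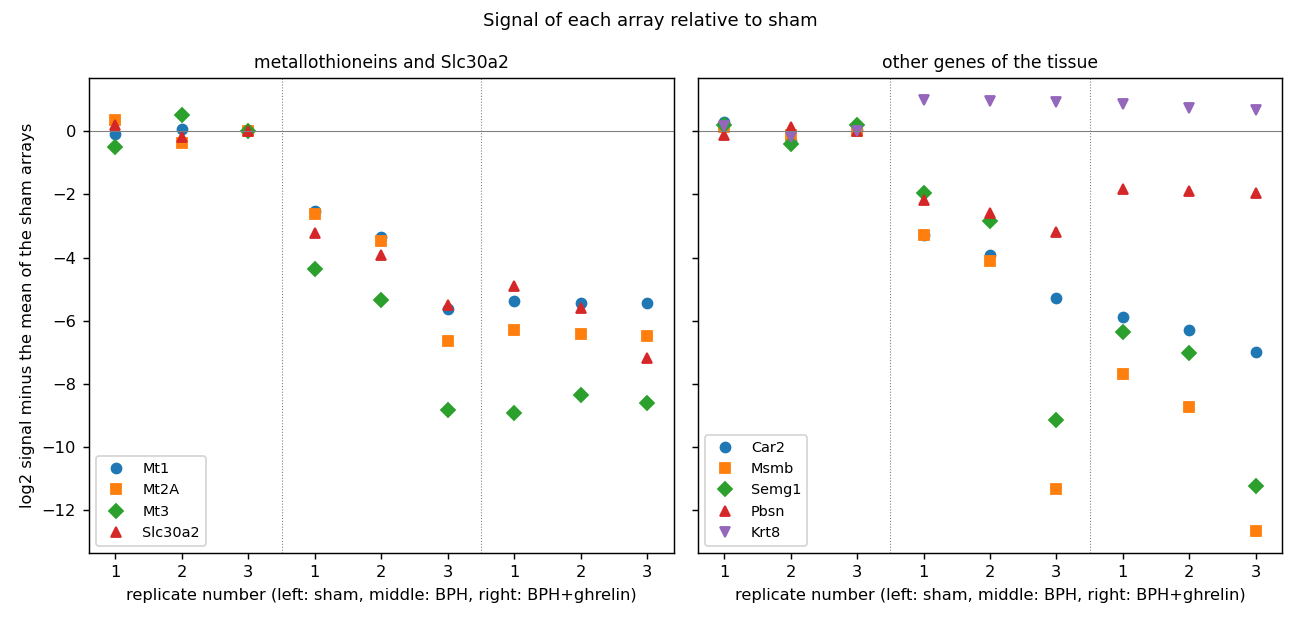
Log2 signal of each array minus the mean of the 3 sham arrays (y axis), by replicate number within sham, BPH and BPH+ghrelin (x axis), for Mt1, Mt2A, Mt3 and Slc30a2 (left) and for Car2, secretory genes and the luminal keratin Krt8 (right). Each symbol is 1 gene on 1 array. BPH replicate 3 is the lowest BPH array for the metallothioneins, Slc30a2, Car2, Msmb and Semg1, whereas Krt8 lies above 0 on all BPH and BPH+ghrelin arrays.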

How the data were processed

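Prostates of 9 rats (3 sham, 3 BPH, 3 BPH+ghrelin) had been hybridized to Agilent one-colour rat arrays, and each array was assigned to its group by its label. The authors deposited scanner intensities per spot (Feature Extraction 11.0.1.1), from which the software had subtracted the background, and a matrix of log2 values that they had quantile normalized in GeneSpring GX 12.1. The intensities were the main source, and the matrix was used as an alternative.

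Outlier spots were removed, the spots of a probe were averaged, 11 of 30367 probes were dropped, and log2 signals were quantile normalized over 9 arrays. Probe accessions were matched to RefSeq genes (GRCr8, for names and promoters), which named 17998 probes (59.3%), and the others kept their own identifier as a gene. Probes had to be well above background on 3 or more of the 6 arrays in a comparison, and the brightest of these stood for its gene. The 3 comparisons were fitted in R 4.3.3 with limma 3.58.1 (lmFit and eBayes, 3 groups, Benjamini-Hochberg adjustment over all genes tested), after a check on simulated data, and an adjusted p under 0.05 was called. The simulated arrays were independent, with the same spread in all groups for a gene, so the check does not cover dependent arrays or unequal spread. The p values and standard errors rest on an estimate of the spread within groups that all 3 groups share for a gene. In each comparison it thus includes the group left out of that comparison. The spread was unequal for Mt1, with SDs of 0.09 in sham, 1.61 in BPH and 0.04 in BPH+ghrelin. Its standard error of 0.66 for BPH+ghrelin against sham thus carries the spread of the BPH arrays. The number of arrays limits the precision.

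The members and gene lists were chosen with earlier results of these data known. Named in addition were family genes called, or at least 2-fold apart without overlap, up to 4 genes of each other list with the largest difference, called genes where 5 or fewer, and the 5 genes most like a member. Mtf1, Krt18, Svs5, Svs6 and the family genes named only for their promoters (Slc30a5, Slc39a7, Slc39a11, Slc39a13), all beyond this rule, were chosen after their values were seen, and some genes that the rule names are not reported here. The fold given for the dim probe of Mt4 is the mean of the bright group over the background limit of each array of the dim group. Same-numbered arrays of different groups correlated from -0.18 to 0.38 in their deviations over 17858 probes, so the numbers did not pair the arrays. The alternatives were other scaling, background correction, filters, probe summaries, blocks, the deposited matrix, other variance models and leaving out arrays. Leaving out the array between the others in each group was added after seeing the data.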

Additional observations from a re-analysis of the deposited data

How the results depend on the processing

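The number of family genes called for BPH against sham, 4, ranged from 0 to 8 when arrays were left out in turn. It was 1 with the fit on the 6 arrays compared only, 0 with scan set as a fixed block, 11 with scan set as a random block (7088 genes of all were then called) and 0 with 2 arrays per group, those between the others left out. For BPH+ghrelin against BPH, where it was 0, it ranged from 0 to 3 when arrays were left out, and it was 1 with no filter on dim probes (Mt4), 2 with the 6 arrays only and 2 with the random block (Slc30a1 and Slc39a6, both higher). For BPH+ghrelin against sham, where it was 7, it ranged from 4 to 8 without single arrays, and it was 1 with the fixed block (Slc30a2) and 0 with 2 arrays per group. With replicate number as a block, although the numbers did not pair the arrays, the counts were 2, 0 and 4. The cause of these differences was not tested, except that fewer arrays enter the fits that leave some out. Scaling to the 75th percentile moved the median of all genes for BPH against sham from 0.04 to -0.09.

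No difference of at least 2-fold of a listed gene or of Mt1 changed sign in any alternative. The difference of BPH to sham ranged from -7.08 to -4.85 for Mt3, from -5.06 to -3.05 for Mt2A, from -4.49 to -2.93 for Mt1 and from -5.70 to -3.58 for Slc30a2, and that of Slc39a14 turned to 0.15 with the mean of its probes, one of which was not well above background on sham replicate 2. Signals near the background limit what can be said of Slc30a10, Mt4 and Slc39a14.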

Other observations

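Genes of iron and copper handling, listed beside the zinc genes, were compared on the same arrays. Of 22 genes tested, 3 were called for BPH against sham, 2 for BPH+ghrelin against BPH and 4 for BPH+ghrelin against sham, where 4.33%, 1.48% and 6.30% of all genes passed. Slc40a1 (ferroportin, the iron exporter of the plasma membrane) fell in BPH against sham (log2 difference -1.42, adjusted p 0.0019 in limma) and again in BPH+ghrelin against BPH (-0.74, adjusted p 0.039). Its arrays read 7.61, 7.37 and 7.56 in sham, 6.11, 6.21 and 5.96 in BPH, and 5.43, 5.41 and 5.23 in BPH+ghrelin, with no overlap between any 2 groups. Slc11a2, the importer of divalent metals, rose in BPH+ghrelin against BPH (0.94, adjusted p 0.0346). In BPH against sham, Hmox1 rose (0.53), and Steap1, also called, was well above background on 6 of 9 arrays only and gets no size here. In BPH+ghrelin against sham, the transferrin receptor Tfrc rose (2.23, adjusted p 0.0247) and ceruloplasmin, Cp, fell (-2.02, adjusted p 0.0345), besides Slc40a1 (-2.16, adjusted p 0.000287) and Slc11a2 (0.64, adjusted p 0.0473), which moved as against BPH. The list's median was 0.01, -0.05 and -0.02 in the 3 comparisons, compared to 0.04, 0.02 and 0.04 over all genes.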
